A study of Rattus norvegicus with 18 samples.

Results

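The cytosolic ribosomal protein genes were taken as every gene symbol of the deposited count tables that begins with Rpl, Rps or Rplp, continues with a number and ends there or in a short suffix such as a, x, l or y, leaving out the Rps6k kinases. The pattern found 86 genes. Of these, 77 were among the 12560 genes of the day 7 table, and all 86 were among the 31038 genes of the day 30 table, where 79 had at least 1 read. The libraries were poly(A) RNA-seq of rat (Rattus norvegicus) motor cortex in a study of spinal cord injury, in 18 libraries of 6 groups with 3 libraries each. At day 7 all 6 libraries were from males, 3 labelled inj and 3 labelled Sham. At day 30 each sex had 3 libraries labelled In (also spelled Ln or ln) and 3 labelled S. The labels did not spell out In and S, and gave no age, strain or injury level. In the pairs below, inj and In were set against Sham and S. No label said whether the libraries of a group came from separate animals, so the p-values measure only the spread between these libraries, which may be technical. The series text described the material as neurons enriched from motor cortex. Neuronal markers (12 of 12 in the tables) summed to 1328 to 4017 CPM per library (CPM, read counts rescaled to a common library size), and the 10 oligodendrocyte markers to 10581 to 208260 CPM, so the libraries held RNA of other cell types as well.

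A ribosome is built from ribosomal RNA and a fixed set of proteins, each made from its own mRNA and needed in about equal numbers. Rpl genes encode proteins of the large subunit, which joins amino acids, Rps genes those of the small subunit, which reads the mRNA, and Rplp0, Rplp1 and Rplp2 the stalk that recruits elongation factors. In mammals, mRNAs for these proteins usually begin with a C followed by a run of pyrimidines, the 5′ terminal oligopyrimidine (TOP) sequence, through which the kinase complex mTORC1 and the RNA-binding protein Larp1 control how strongly they are translated. In the brain, ribosomes supply protein synthesis in cell bodies and also in dendrites and axons.

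The starts of some of the genes named below are printed here because the TOP sequence is common in the family, although not every member had it near its annotated start. Rpl36 and Rplp1, which had wide gaps between the sexes, are not printed. By the rule that follows, Rplp1 had a TOP start and Rpl36 did not. Each line gives 10 bases before the RefSeq annotated transcription start and 20 from it on (build GRCr8), on the gene's own strand, 5′ to 3′. Capitals mark the stretch from a C that lies within 5 bases of the annotated start and is followed by at least 4 bases that are each C or T; pyrimidines before that C were not counted and stay in lower case.
Rpl22 (chr5:168117951-168117980, + strand): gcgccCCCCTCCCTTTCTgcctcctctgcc
Rpl28 (chr1:78083513-78083542, − strand): cccctagtgtCTTTCTTTCCgtctccggcc
Rpl35 (chr3:43165902-43165931, − strand): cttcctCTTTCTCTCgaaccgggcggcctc
Rplp0 (chr12:46718371-46718400, − strand): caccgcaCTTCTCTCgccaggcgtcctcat
Rps7 (chr6:50999426-50999455, − strand): agagctgtgtCTCTTTCTaagccggcactc
Rpl10 (chrX:157205840-157205869, + strand): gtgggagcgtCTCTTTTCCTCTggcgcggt
Rpl38 (chr10:100200425-100200454, + strand): ttctttttccgttgttcggtgctcgctcct
Rps6 (chr5:106420521-106420550, − strand): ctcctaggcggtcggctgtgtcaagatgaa
Rpl7l1 (chr9:21695708-21695737, + strand): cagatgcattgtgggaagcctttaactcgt
In Rpl28, Rps7 and Rpl10 the marked C was the annotated start itself, and in Rpl22, Rpl35 and Rplp0 it lay a few bases upstream, in Rpl22 and Rpl35 within a longer pyrimidine stretch that began before it. Rpl38, Rps6 and Rpl7l1, a factor related to Rpl7 that acts in ribosome assembly, had no such C within 5 bases of the annotated start, although each holds a C with such a run farther from it in the printed line. Promoter sequences were found for 67 of the 86 members. Of these 67, 40 (59.7%, 95% Wilson interval 47.7 to 70.6%) had such a C within 5 bases on the sense strand, against 17.0% of all 33469 promoters in the RefSeq table. With the C required at the annotated start, the shares were 35.8% of the members and 2.63% of all promoters, and within 10 bases they were 73.1% and 28.9%. A member was counted when any of its promoters had such a C, while the share of all promoters counts each promoter singly. The units thus differ, which can raise the members' shares.

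The family made up a large part of each library. At day 7 the members' summed share of all gene counts was 5.94% in Sham 1, 5.52% in Sham 3 and 4.51% in Sham 1-RNA, and 4.996%, 4.83% and 5.75% in inj 2, inj 3 and inj 4. The Sham and inj shares overlapped, and their means, 5.33% ± 0.74 and 5.19% ± 0.49 (SD, n = 3 each), did not differ beyond that spread (exact two-sided permutation test, p = 0.9; 3 against 3 cannot go below 0.1). At day 30 the shares were 2.82%, 2.68% and 2.82% in male S, 4.02%, 2.80% and 2.60% in male In, 2.50%, 2.65% and 2.92% in female S, and 3.01%, 2.39% and 2.45% in female In. Male In 1, at 4.02%, was the highest of the 12. The days came from separate tables and were not compared in level. Rpl13a, a large-subunit protein, had the most counts of any member in both tables, 3.79% of the members' counts at day 7 and 3.84% at day 30, and the 5 members with the most counts held 14.3% and 14.5% of them.

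**Figure D1:**
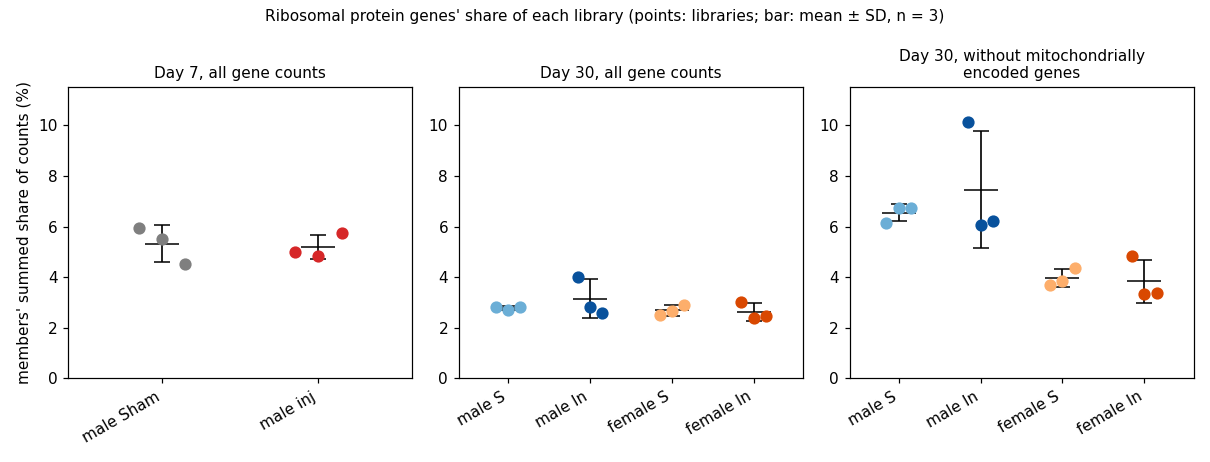
Share of each library's counts taken by the ribosomal protein genes, in percent, by group; points are libraries and bars the mean ± SD (n = 3). Male and female libraries overlap when all gene counts are the total (2.39 to 4.02%) and separate when mitochondrially encoded genes are left out of the total (3.34 to 4.82% in females, 6.05 to 10.1% in males).

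Facts of the whole tables bear on these values. At day 7 the Sham libraries held 2683105 to 3014083 gene counts and the inj libraries 14650528 to 17013273, so depth and group cannot be told apart there, although 76 of the 77 members had over 1000 counts in all. Day 30 libraries held 14532252 to 27849794 counts. Male libraries had 53.7 to 60.3% of their gene counts on 13 mitochondrially encoded genes and female libraries 27.1 to 37.5%. The Y-linked gene Eif2s3y had 261 to 784 counts in each day 30 male library and 0 to 2 in each female library, as labelled. The tables held 2 libraries that stood apart: Sham 1-RNA lay near the inj libraries for most members, and male In 1 was the highest library for 70 of the 79 members with reads. Sham 1-RNA shares its number with Sham 1, and the labels did not say whether both came from the same animal. The day 30 table left out alignments to several places, which were 16.4 to 40.6% of its reads and alignments per library. Ribosomal protein genes have many near-identical processed copies in the genome, so reads of these genes could be lost or split in this step, and their part in the results was not tested.

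Not every member could be followed. Rpl30l1, Rpl35a, Rpl8, Rplp2, Rps15al4, Rps6 and Rps9 were listed at 0 in all 12 day 30 libraries, which leaves them out of the day 30 results. Of these, Rpl35a, Rpl8, Rplp2 and Rps6 had reads in every day 7 library: Rpl8, for one, had 434 to 702 counts in the Sham and 2563 to 3437 in the inj libraries. Rps19 and Rpl7a were near 0 at day 30, with 5 to 35 and 2 to 18 counts per library, against 68 to 493 and 170 to 1305 at day 7. The cause of these zeros and low counts was not tested. Rpl10l, Rpl37a, Rpl39l, Rpl3l, Rpl7l1 and Rps10l1 had reads in the day 30 table alone. All 77 members of the day 7 table passed the filter on low counts, and at day 30 Rpl39l and Rpl3l did not, which left 77 tested.

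At day 7, with TMM scaling, 11 of the 77 members fell in inj against Sham and none rose (edgeR quasi-likelihood test, adjusted p under 0.05 over all genes). That was 14.3% of the members, beside 15.4% of all 11786 genes tested that fell, so members were called about as often as genes in general. No member among 77 rose, beside 19.3% of all genes. A further count showed the direction: 72 of 77 members had a lower fitted level in inj, with a median log2 fold change of −0.33, while the median of all genes was −0.002. An unadjusted p under 0.05 with a lower level was reached by 25 members, beside 20.5% of all genes (edgeR). DESeq2 called 22 members lower and limma-voom with sample weights 50. The shares of all genes called lower in these fits are not given here, so the counts cannot be read as particular to the members.

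Rpl38, a large-subunit protein known from mice for its role in translating Hox mRNAs, fell the most. Its levels were 582, 460 and 343 CPM in Sham 1, Sham 3 and Sham 1-RNA, and 226, 194 and 268 CPM in inj 2, inj 3 and inj 4. All 3 Sham libraries were above all 3 inj libraries, with a log2 fold change of −1.01 ± 0.21 (SE; adjusted p = 0.00469, edgeR). It was called under each of the 15 alternatives tried, with a log2 fold change from −1.19 to −0.68.

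Rps6, the small-subunit protein that S6 kinases phosphorylate, was at 282, 284 and 140 CPM in Sham 1, Sham 3 and Sham 1-RNA and at 112, 105 and 149 CPM in inj 2, inj 3 and inj 4. Sham 1-RNA lay below inj 4, so the groups overlapped, and the log2 fold change was −0.95 ± 0.26 (adjusted p = 0.0181, edgeR). Rpl22, which in mice is needed for the development of T cells, was at 338, 286 and 189 CPM in the Sham libraries in the same order and at 160, 140 and 200 CPM in the inj libraries. Here too Sham 1-RNA lay among the inj libraries, and the log2 fold change was −0.70 ± 0.22 (adjusted p = 0.0327, edgeR).

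Rpl28, a large-subunit protein, was at 1095, 959 and 724 CPM in Sham and at 596, 587 and 684 CPM in inj, without overlap, a log2 fold change of −0.57 ± 0.19 (adjusted p = 0.0382, edgeR). Rplp2 of the stalk had levels of 165, 166 and 85.5 CPM in Sham and 77.2, 72.9 and 96.8 CPM in inj, with overlap through Sham 1-RNA, and fell by 0.75 on the log2 scale. Its partner Rplp1, at a log2 fold change of 0.05, and Rplp0, at −0.45, which anchors the pair, did not pass the test. The remaining members that fell were Rpl35 (−0.62), Rpl4 (−0.60), Rpl14 (−0.59), Rpl36al (−0.53), Rps19 (−0.58) and Rps20 (−0.61), with adjusted p-values from 0.0345 to 0.0497 in edgeR. Of the 11, Rpl28, Rpl35, Rpl38 and Rpl4 had every Sham library above every inj library. In all, 7 of the 77 members separated the groups in that way, beside 21.9% of all genes tested.

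**Figure D2:**
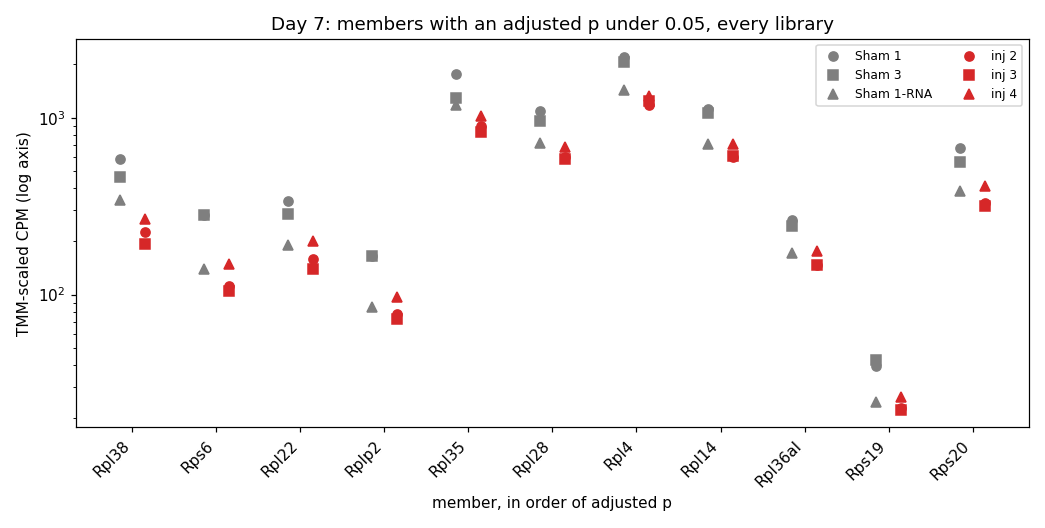
TMM-scaled CPM (log axis) of the 11 members that fell at day 7, in each of the 3 Sham (grey) and 3 inj (red) libraries. Sham 1 and Sham 3 are above all inj libraries for each gene, and the triangle of Sham 1-RNA lies between them and the inj libraries or among the latter.

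The day 7 fall depended on the library Sham 1-RNA and on the scale. Sham 1 was the highest of the 6 libraries for 62 of 77 members, and Sham 1-RNA the lowest for 35. With Sham 1 and Sham 1-RNA summed to 1 library, 32 members fell. Without Sham 1-RNA, 59 members fell and the median was −0.52; with it and without Sham 1, 1 fell and the median was −0.20. Leaving out Sham 3, inj 2 or inj 3 also left 1 member that fell. For these alternatives too, the share of all genes that fell is not given. With library totals as the scale, which does not correct for a few very abundant genes, the median of the members moved to −0.02, with 42 of 77 lower, and that of all genes to 0.28. In that fit Rpl38 fell and Rpl9, a large-subunit protein, rose by 0.46 (adjusted p = 0.0454, edgeR), the lone calls. The distance between the members and all genes was −0.33 with TMM and −0.30 with library totals. Since a change of scale shifts all genes by nearly the same amount, this distance could hardly move and does not test the fall. Mbp, which encodes myelin basic protein, took 14.5%, 13.6% and 5.81% of the counts of Sham 1, Sham 3 and Sham 1-RNA, and 4.94 to 6.83% of those of the inj libraries. Of the 10 oligodendrocyte markers, Mbp among them, 4 fell and 1 rose at day 7, and their sum was 70967 to 208260 CPM in Sham, lowest in Sham 1-RNA, and 61109 to 77257 CPM in inj. Of the 12 neuronal markers 2 fell and 1 rose, with sums of 3364 to 3662 CPM in Sham and 2515 to 4017 CPM in inj. The part of these in the result was not tested. Likewise 11 of the 11 endothelial and 11 of the 12 microglial markers in the table rose at day 7, and their summed levels were 255 to 352 and 690 to 890 CPM in Sham against 1964 to 2444 and 3560 to 3768 CPM in inj, with no defining marker at 0. In such bulk samples, fewer cells of a type and less RNA per cell cannot be told apart.

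Of the large-subunit genes 7 of 44, and of the small-subunit genes 3 of 30, fell at day 7, beside 15.4% of all genes, with median log2 fold changes of −0.36 and −0.28; the difference between the subunits was not tested. Members with and without a TOP start within 5 bases had medians of −0.29 (38 members) and −0.37 (23 members). Rps2, a core small-subunit protein, varied least within groups, at 1226, 1194 and 1118 CPM in Sham and 1045, 1026 and 1115 CPM in inj. Rps16 varied most, with a within-group SD of 0.50 on the log2 scale, from 901 CPM in Sham 1-RNA to 2287 CPM in Sham 1.

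The wider translation machinery at day 7 was counted over lists chosen for their function, with earlier results of these data known. Rpsa, Rack1 and Fau, ribosomal proteins that the name pattern misses, were not called, and had lower fitted levels of −0.21, −0.17 and −0.15 on the log2 scale. Among 14 other tested mRNAs known to begin with a TOP sequence, 8 fell and none rose, with a median of −0.56. Nap1l1, a histone chaperone, fell by 1.16 and Eef1d, a subunit of the elongation factor complex, by 0.96 on the log2 scale. Among 30 initiation factors 11 fell and none rose (median −0.25), led by Eif5b, which joins the subunits, at −2.597, and Eif3j, a factor loosely bound to initiation complex eIF3, at −2.25. Of 46 ribosome biogenesis factors 14 fell and none rose (median −0.26), with Nop58, a core protein of the RNA-guided methylation complex, at −2.88 and the assembly kinase Riok1 at −1.85. Among 20 genes of mTORC1 and translation control 3 rose and 7 fell (median 0.02): the mTORC1 inhibitor Tsc2 was 1.22 higher and the S6 kinase gene Rps6kb1 0.82 lower (log2 fold change −0.82). These named genes each had adjusted p-values of 0.00289 or less in edgeR. In the same mTORC1 list, Mtor and Rptor also rose, by 0.58 and 0.66 on the log2 scale. Tsc1 and Eif4ebp2 were among those that fell, by 0.78 and 0.73. Their adjusted p-values ran from 0.00518 to 0.0312 in edgeR, and they were named after their values were seen. Beside all genes, of which 15.4% fell, the listed genes were described and not tested as sets.

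At day 30 in males, no member passed the test in In against S, nor did any of the 15074 genes tested (0%, edgeR). Of the members, 3 had an unadjusted p under 0.05, all higher, beside 4.60% of all genes that were higher at that p. DESeq2 and limma-voom called no member. Fitted levels were higher in In for 65 of 77 members, with a median log2 fold change of 0.21 beside 0.02 for all genes. That direction rested on 1 library: without male In 1 the median was −0.03, and 33 of 79 members were higher. Male In 1 also had the lowest Mbp share, 0.551% against 2.70 to 3.84% in the other male day 30 libraries, the lowest oligodendrocyte marker sum (10581 CPM against up to 77647) and the lowest neuronal marker sum (1328 CPM). The part of these in the result was not tested.

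The smallest p-values belonged to Rpl17, Rpl22 and Rps27l. Rpl17, a large-subunit protein at the exit of the peptide tunnel, was at 335, 387 and 400 CPM in male S and at 681, 466 and 508 CPM in male In. These groups did not overlap, and the log2 fold change was 0.56 ± 0.16 (adjusted p = 0.599, edgeR). Rpl22 was at 106, 75.5 and 71.2 CPM in S and at 191, 106 and 122 CPM in In, a log2 fold change of 0.73 ± 0.25 (adjusted p = 0.599, edgeR). Rps27l, a copy of Rps27 that p53 induces, was low, at 9.05, 3.27 and 7.14 CPM in S and 16.8, 10.6 and 10.4 CPM in In (0.93 ± 0.34, adjusted p = 0.599, edgeR). Groups did not overlap for 8 of the 77 members, all higher in In, beside 6.30% of all genes that were higher without overlap. The members with the smallest p among those lower in In were Rpl7l1 (−0.21), Rps27a, a ubiquitin fusion protein (−0.48), and Rpl26 (−0.10), none of which passed.

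At day 30 in females, again 0 of 77 members passed in In against S, beside 0.0332% of all genes (5 genes, edgeR), and no member had an unadjusted p under 0.05. DESeq2 and limma-voom called none. The median log2 fold change was −0.05, with 65 of 77 members lower, and it went from −0.30 without female In 1 to 0.06 without female In 3. Of the 9 choroid plexus markers tested, 2 rose in female In against S, and the 10 markers in the table summed to 167 to 814 CPM in female In and 78.9 to 113 CPM in female S, with Ttr at 0 in both; their part in the values of the members was not tested. Rpl22 was at 55.7, 57.4 and 65.7 CPM in female S and at 70.3, 43.9 and 38.4 CPM in female In, so both its highest and its lowest female libraries were In. Rpl7l1 was at 34.2, 32.5 and 31.5 CPM in S and 40.4, 35.2 and 37.7 CPM in In, without overlap, yet did not pass (0.21 ± 0.16, adjusted p = 0.99995, edgeR).

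The In minus S difference was then compared between the sexes. No member, and none of all genes (0%), passed the test of that interaction in edgeR. An unadjusted p under 0.05 was reached by 2 members, beside 4.11% of all genes, and DESeq2 and limma-voom called no member. The fitted interaction was negative, that is lower in females, for 69 of 77 members (median −0.27), but without male In 1 the median was −0.03. Rpl22 had the smallest p, at −0.96 ± 0.35 (adjusted p = 0.940, edgeR).

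Female and male libraries of the same label differed for most members with TMM scaling, and for few with library totals as the scale. In S libraries with TMM, 48 of 77 members (62.3%) fell in females against males and none rose, beside 1.27% of all genes that fell (edgeR). The median log2 fold change was −0.90 for members and 0.03 for all genes. In In libraries, 70 of 77 members (90.9%) fell and none rose, beside 6.59% of all genes that fell, with medians of −1.12 and 0.03. Every female library was below every male library for 67 members in S and 69 in In, beside 11.9% and 15.5% of all genes. All 48 members that fell in S were among the 70 that fell in In, which is 100% of the shorter and 68.6% of the longer list. The S and In comparisons share no library, and across the 77 members their fold changes had a Pearson r of 0.67 and a Spearman rho of 0.66. Members are not independent replicates, and both comparisons share the scaling and the fitted spread.

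Rpl36, a large-subunit protein, had one of the widest gaps. It was at 96.8, 99.4 and 137 CPM in female S and at 340, 389 and 366 CPM in male S. In the In libraries it was at 144, 89.4 and 83.4 CPM in females and 661, 315 and 373 CPM in males. The groups were far apart in both, with log2 fold changes of −1.72 ± 0.27 in S (adjusted p = 0.00406) and −2.09 ± 0.27 in In (adjusted p = 0.000767, edgeR). Rplp1, of the stalk, was at 312, 331 and 408 CPM in female S against 897, 930 and 1022 CPM in male S. Among In libraries it was at 428, 287 and 324 CPM in females and 1644, 1007 and 999 CPM in males. Its log2 fold changes were −1.44 ± 0.22 in S (adjusted p = 0.00279) and −1.81 ± 0.22 in In (adjusted p = 0.000538, edgeR).

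Rplp0, also of the stalk, fell less, by 0.85 on the log2 scale in S and by 1.08 in In. The other members with the smallest adjusted p in S were Rpl36al (−1.28), Rpl27 (−1.27), Rps7 (−1.24), Rpl32 (−1.36), Rpl12 (−1.18), Rpl24 (−1.02), Rpl27a (−1.28), Rps14 (−1.13), Rpl13a (−1.22) and Rpl7 (−0.97). They belong to both subunits, and in In the log2 fold changes of the leading members ran from −1.05 for Rpl10 to −2.09 for Rpl36, with Rpl27 (−1.51), Rpl17 (−1.29), Rpl32 (−1.66), Rps12 (−1.55), Rps10 (−1.54) and Rpl10a (−1.08) between. Of the Rpl genes 28 of 45 fell in S and 41 in In; of the Rps genes 18 of 30 and 27. Rpl22 had an S difference of −0.50 that did not pass and fell in In by 1.46. Its paralog Rpl22l1, which is known to take over for it, was lower by 0.35 in S, which did not pass, and fell by 0.89 in In. Rps19, a protein whose human gene is mutated in Diamond-Blackfan anaemia, fell by 2.39 in In, but from at most 35 counts per library.

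**Figure D3:**
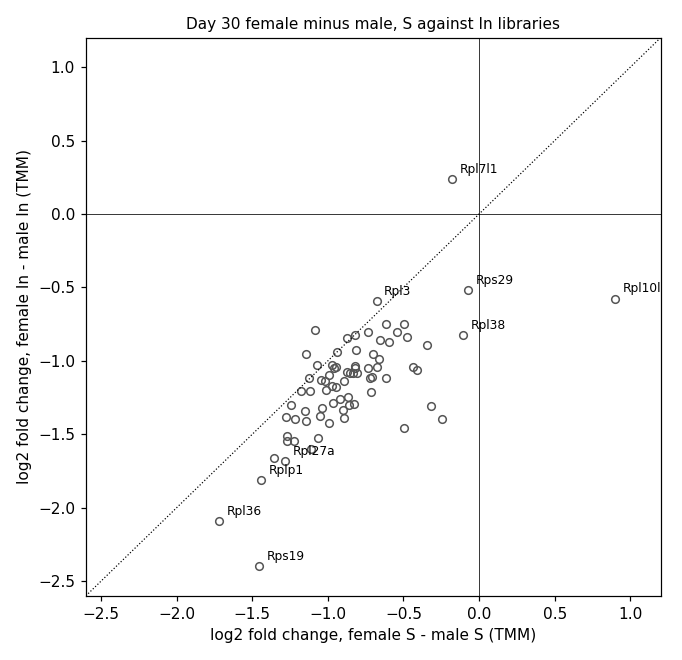
Log2 fold change of female against male libraries for the 77 tested members, in S (x axis) and In (y axis), with the line of equal change dotted. Nearly all members lie below 0 on both axes, Rpl36 and Rplp1 far down, and Rpl7l1, Rps29, Rpl38 and Rpl10l apart from the main group.

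The proteins outside the name pattern and the other lists were read in the same fits. Rpsa, Rack1 and Fau fell in S by 0.98, 0.68 and 1.07 on the log2 scale, and in In by 1.03, 0.81 and 1.31. Of 15 other TOP mRNAs 5 fell in S and 6 in In and none rose, with medians of −0.56 and −0.47. Initiation factors had no calls in S, and 2 rose and 3 fell of 30 in In (medians −0.20 and −0.10). The 46 biogenesis factors had medians of 0.02 and 0.03, with 1 that fell in S, and 1 that rose and 5 that fell in In. Of 22 genes of mTORC1 and translation control 1 fell in S, and 2 rose and 2 fell in In. Of all genes tested, 1.27% fell and 1.70% rose in S, and 6.59% fell and 6.10% rose in In (edgeR). The lists were not tested as sets. With and without a TOP start, members had medians of −0.87 and −0.80 in S and −1.11 and −1.13 in In.

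How large this difference is depended on the scale. With library totals in place of TMM, the members' medians were −0.03 in S and −0.23 in In, and those of all genes were 0.88 and 0.94. Called members were then 3 that rose and 3 that fell in S, and 1 and 14 in In. The difference between the members and all genes went from −0.93 to −0.92 in S and from −1.14 to −1.17 in In. A change of scale shifts all genes of a comparison by nearly the same amount. This difference could therefore hardly move, and it does not test the result. Measured directly, the members' share of all gene counts overlapped between sexes (exact two-sided permutation test, p = 0.6 in S and 0.5 in In, n = 3 each). With the 13 mitochondrially encoded genes out of the total, the share was 3.97% ± 0.36 in female S and 6.55% ± 0.34 in male S, and 3.84% ± 0.85 in female In and 7.46% ± 2.30 in male In (SD, n = 3 each). These groups did not overlap, and p = 0.1 in both was the smallest that the exact test allows. With totals without these genes as the scale of the fit, 34 members fell in S and 65 in In. The shares of all genes called in this fit, with library totals and without single libraries are not given here. With the library number as a block, which takes male S 4 out of the comparison, 0 members fell in S. Fitted to the compared groups alone, 42 fell in In (more in the closing section). Leaving out 1 library left 4 to 38 members that fell in S and 44 to 71 in In. The lowest counts with 1 library left out were, in S, 4 without female S 1, 6 without male S 4, 7 without female S 2, 15 without male S 2 and 25 without female S 3. In In they were 44 and 47 without female In 2 and female In 3. Reads and alignments that were not unique made up 16.4 to 19.5% in female and 17.5 to 40.6% in male libraries. Oligodendrocyte markers summed to 23742 to 37712 CPM in female S and 47977 to 58849 CPM in male S, and overlapped in In. None of these 10 was called. Of 11 endothelial markers 4 rose in S and 5 in In, and none fell. Of 12 microglial markers 2 rose in S, and 2 rose and 1 fell in In. Of 9 choroid plexus markers 7 rose in In and none in S, and no neuronal marker was called. The part of these in the result was not tested. Sex cannot be told apart here from anything else that separated the male from the female libraries, for which the labels gave no batch.

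**Figure D4:**
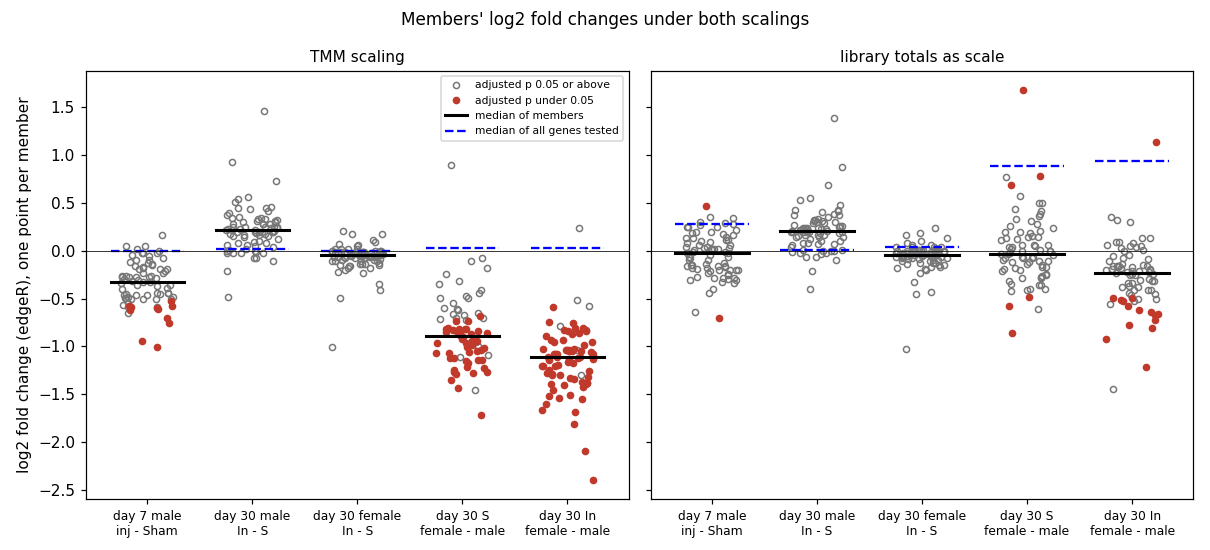
Log2 fold change of each tested member (points; filled red where the adjusted p was under 0.05) in 5 comparisons, with TMM scaling on the left and library totals as the scale on the right. The black line is the median of the members and the dashed blue line that of all genes: in female against male S libraries they lie at −0.90 and 0.03 with TMM and at −0.03 and 0.88 with library totals.

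When each library was scaled to the members' own sum, so that a value is a gene's level relative to the family, few members moved. In S, Rpl36 fell by 0.82 on the log2 scale in females relative to the family (adjusted p = 0.00918, edgeR), and Rps29, Rpl38, Rpl7l1 and Rpl10l rose, by 0.82, 0.82, 0.74 and 1.75 (adjusted p from 0.012 to 0.0485). In In, Rpl36 fell by 0.92, Rplp1 by 0.64 and Rpl27a by 0.54, and Rpl7l1, Rps29 and Rpl3 rose by 1.34, 0.63 and 0.55 (adjusted p from 0.000801 to 0.0477). Between the sexes this scale shifts the other genes together, so the adjustment over all genes was weak. The unadjusted p was 0.0319 for Rpl3 and 0.0276 for Rpl27a in In, and 0.0257 for Rpl10l in S (edgeR). Among this many members, some p-values of that size can arise without any change. Rpl10l had 47, 0 and 13 counts in male S. Rpl36, Rps29 and Rpl7l1 were called in the same direction in both sets of libraries; they were named after their values were seen. Rpl7l1 was at 31.5 to 40.4 CPM in females and 25.5 to 42.2 CPM in males, so its level on the TMM scale overlapped between the sexes. Rps29, a small zinc-binding small-subunit protein, was at 378, 423 and 515 CPM in female S and 442, 517 and 428 CPM in male S, again with overlap. At day 7, Rpl38 alone was called on this scale, at −0.68 (adjusted p = 0.0337, edgeR).

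The paralogs with low counts had little to compare. Rpl10l, an Rpl10 copy known from the mouse testis, was at 0 to 4.11 CPM at day 30. Rpl39l was at 0 in all 6 male libraries and at 0 to 1.37 CPM in females, and Rpl3l, known from muscle, at 0 to 0.682 CPM over all 12. Rps10l1 was at 1.58 to 5.74 CPM in females and 6.36 to 13.2 CPM in males. Within groups at day 30, Rps27a varied most, with an SD of 0.69 on the log2 scale, and male S 1 (242 CPM) and male In 3 (264 CPM) were far below the other 4 male libraries (469 to 855 CPM). Rps28 (0.60) and Rpl38 (0.58) followed. Rpl17 and Rpl7l1 varied least, with an SD of 0.17 each.

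In males the change with In at day 30 was set against the change with inj at day 7, in 1 fit of the 12 male libraries and the genes of both tables. Of 73 members, Rpl22 and Rpl28 had a change at day 30 that was higher than that at day 7, which is 2.74% of members beside 5.41% of all 11396 genes. The difference of changes was positive for 71 of 73 members, with a median of 0.58 beside 0.07 for all genes. DESeq2 called 9 members and limma-voom 22. For Rpl22 it was 1.48 ± 0.35 (adjusted p = 0.0126, edgeR), from −0.70 at day 7 and 0.73 at day 30, and for Rpl28 0.95 ± 0.26 (adjusted p = 0.0244, edgeR). Rpl28 was at 411, 457 and 479 CPM in male S and at 687, 481 and 527 CPM in male In, without overlap. With library totals as the scale no member was called, and the median was 0.24. Leaving out a library gave 0 called members without Sham 1, 18 without Sham 1-RNA, 4 without male In 2, and 1 or 2 otherwise. For these fits, DESeq2 and limma-voom, the share of all genes called is not given here. Their counts therefore cannot be read as particular to the members.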

How the data were processed

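Poly(A) RNA-seq of rat motor cortex was analysed from 2 deposited tables of raw read counts per gene, one per day, as the authors made them. Per the submitters' processing notes HISAT2, edgeR and the build rn6 were used; versions and further settings are not given in the sources used here. Day 30 summary lines (not aligned, not unique, ambiguous, no feature) were left out of totals and tests. Members and lists were chosen with earlier results of these data known. Each table was filtered with filterByExpr and fitted with edgeR 4.0.16 (TMM, robust quasi-likelihood), day 30 with all 4 groups in 1 fit, and p-values were adjusted by Benjamini-Hochberg over all genes tested; the threshold was 0.05. CPM are TMM-scaled. Depth was 2683105 to 27849794 counts per library, and intervals cover counting error only. DESeq2 1.42.0, limma 3.58.1 and the alternatives in the closing section were run beside it, and the fits were tested on simulated data. The text names the members called, up to 12 a direction by adjusted p (with fewer than 3, the 3 with the smallest p), paralogs, stalk proteins, fixed examples and those with most counts, and up to 4 genes a list at day 7; others are named as chosen after their values were seen. Values of some genes are not reported here. Levels were not compared between genes, since no transcript lengths were used. Sequences are from RefSeq (GRCr8); the files' build differs, and coordinates serve these sequences alone.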

Additional observations from a re-analysis of the deposited data

Results flagged for a closer look

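The change in males, with In at day 30 and with inj at day 7, differed between the days for Rpl22 and Rpl28 by the test of the difference itself (edgeR). At day 30 neither passed in male In against S (adjusted p = 0.599 for Rpl22 and 0.669 for Rpl28, edgeR). At day 7 depth and group cannot be told apart. For Rpl22 the difference of log2 fold changes was 1.483 (adjusted p = 0.0126), and for Rpl28 it was 0.9535 (adjusted p = 0.0244). Both lost their call with library totals and with the members' sum as the scale, and when Sham 1 was left out (0 members called). Of the 21 alternatives, Rpl22 lost its call in 3 and Rpl28 in 10. The members called were 2.74% of those tested, beside 5.41% of all genes.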

How the results depend on the processing

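Limits: with 3 libraries a group, single members are called by few libraries, and depth at day 7 is one with the group. Over the named genes that were followed through the alternatives, 1238 of 1493 values kept their direction and their side of the threshold. Of the rest, 200 lost a call, 15 gained one and 40 changed sign. RLE size factors, TMM factors without the members, both other filters, and TMM without mitochondrially encoded genes (added after the data were seen, as were totals without these genes) changed no count of called members by more than 1.5 times. Where a value below changed, the cause was not tested. Counts of called members under the alternatives stand without the share of all genes, so they cannot be read as particular to the members.

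With library totals as the scale, the median of the members was −0.0224 at day 7 (1 rose, 1 fell), −0.0313 in female against male S libraries (3 rose, 3 fell), −0.2284 in In libraries (1 rose, 14 fell) and 0.2404 in the difference between days (0 rose). At day 7 Rpl22l1 was then at 0.0167 and Rps27l at 0.1627, against −0.2700 and −0.1247 with TMM. In S libraries Rplp0 was at 0.0133, Rpl22 at 0.3341, Rpl22l1 at 0.499, Rpl7l1 at 0.6843 and Rack1 at 0.1827, and in In libraries Rack1 at 0.0782. Scaled to the members' sum, the medians are near 0 by construction: 0.0113 at day 7 (1 fell), 0.0169 in S (4 rose, 1 fell), 0.0263 in In (3 rose, 3 fell) and 0.0230 between days (0 rose). Relative to that sum, Rpl22l1 was at 0.037 and Rps27l at 0.1946 at day 7. In S Rplp0 was at 0.0625, Rpl22 at 0.3854, Rpl22l1 at 0.543, Rpl7l1 at 0.7432 and Rack1 at 0.2306. In In Rpl10a was at 0.068, Rpl10 at 0.0804, Rplp0 at 0.0676, Rpl22l1 at 0.3025, Rpsa at 0.1092 and Rack1 at 0.3216. With library totals without mitochondrially encoded genes the S median was −0.7001, and Rpl7l1 was at 0.0113.

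DESeq2 called 22 members lower at day 7 and 9 higher between days, and limma-voom 50 and 22. With limma-voom, Rplp1 was at −0.0916 and Rps21 at −0.0758 at day 7, against 0.05 for each in edgeR. With Sham 1 and Sham 1-RNA summed, 32 members fell at day 7. Fitted to the compared groups alone, 42 fell in female against male In libraries.

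Same-numbered day 30 libraries of a sex had correlations of 0.00395 to 0.129 and others of −0.158 to 0.106. The labels did not say what the number means. These correlations cannot tell whether it marks a shared animal or batch. With that number as a replicate block, 0 members fell in S (median −0.7839) and 68 in In, Rps27a was at 0.295 in male In against S, and its interaction was −0.4072. No paired analysis was possible at day 7 because the groups share only 1 number.

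Leaving out 1 library gave 1 to 59 members that fell at day 7, 4 to 38 in female against male S libraries, 44 to 71 in In libraries and 0 to 18 that rose between days. Uncalled genes that changed sign in some of these were, at day 7, Rpl9 (−0.0124 to 0.3024), Rplp1 (−0.1271 to 0.1693), Rps21 (−0.1289 to 0.1966) and Rps27l (−0.2564 to 0.0750). At day 30 they were Rpl26 in males (−0.2646 to 0.0152) and Rpl12 in females (−0.0629 to 0.3581). Between days they were Rps27a (−0.6080 to 0.0800) and Rpl9 (−0.3202 to 0.1141). The planned median of other genes with short proteins was not run, since no protein table was used here.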
